A study of Homo sapiens with 24 samples.

Results

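The C/EBP genes measured here were CEBPA, CEBPB, CEBPD and CEBPG, taken as the C/EBP factors by name and not by any measured value. They were 4 of 33127 genes with a row in the deposited count table, and their 5 transcript rows were 1 each for CEBPA, CEBPB and CEBPD and 2 for CEBPG, summed to 1 value per gene. All 4 passed the filter on low counts, as did 15337 genes in all. Human A549 cells, a lung adenocarcinoma line grown in F-12K medium with serum, were exposed to dexamethasone (dex), a synthetic glucocorticoid, at 100 nM in ethanol, or to the same volume of the ethanol vehicle (EtOH, 0.02% of the medium by volume), for 1, 3, 5, 7, 9 or 11 hours. Poly-A RNA was sequenced in 2 libraries per treatment and time point, 24 in all, and the labels name no genetic change in any group and no difference between the dex and EtOH groups other than the drug. The study's methods describe triplicates, and the libraries analysed here are those that the labels list. The labels call the 2 libraries of a group biological replicates but do not say what they share, so p-values measure the spread between these libraries. As A549 is a single tumour line, the values describe that line and not alveolar cells in a lung.

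C/EBP proteins are basic leucine zipper factors that bind DNA as dimers with each other or with related factors. CEBPB and CEBPD are induced early by inflammatory cytokines and by the hormone mix, containing a glucocorticoid, that starts adipocyte differentiation, whereas CEBPA acts later in differentiation and is tied to growth arrest. CEBPG lacks a strong activation domain and is known mostly as a dimer partner, including of ATF4 in the amino acid response, and in the lung epithelium CEBPA and CEBPD are known regulators of surfactant and secretory genes.

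The promoter windows of 3 of the genes are shown because CEBPB rose with dex while CEBPA and CEBPG, which share a locus, did not. No usable window was at hand for CEBPD, which rose as well. Features of the CEBPB window are thus not read as marking the genes that rose. Each runs from 250 bases before to 50 bases after the RefSeq start (GRCh38.p14), 5′ to 3′ on the gene's own strand. Capitals mark matches on either strand to 5 motifs. A C/EBP core is TTGCNNAA. The core of a cyclic AMP response element is TGACG. A glucocorticoid receptor core is AGAACA, and the TATA box was searched as TATAAA. The last motif was the CCAAT box. The windows lie at chr19:33302485-33302784 on the minus strand for CEBPA, chr20:50190580-50190879 on the plus strand for CEBPB and chr19:33373863-33374162 on the plus strand for CEBPG.
CEBPA: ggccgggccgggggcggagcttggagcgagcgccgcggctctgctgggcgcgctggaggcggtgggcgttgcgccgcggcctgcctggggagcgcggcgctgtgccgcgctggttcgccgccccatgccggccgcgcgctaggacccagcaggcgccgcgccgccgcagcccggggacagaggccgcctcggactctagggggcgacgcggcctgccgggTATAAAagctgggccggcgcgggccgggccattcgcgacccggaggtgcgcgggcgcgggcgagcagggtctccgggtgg
CEBPB: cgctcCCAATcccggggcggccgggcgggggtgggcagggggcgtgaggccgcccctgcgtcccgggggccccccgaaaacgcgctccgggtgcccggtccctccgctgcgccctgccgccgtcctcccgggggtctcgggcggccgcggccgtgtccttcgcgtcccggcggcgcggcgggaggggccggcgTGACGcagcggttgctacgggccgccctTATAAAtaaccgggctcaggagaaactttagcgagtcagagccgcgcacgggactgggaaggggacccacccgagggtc
CEBPG: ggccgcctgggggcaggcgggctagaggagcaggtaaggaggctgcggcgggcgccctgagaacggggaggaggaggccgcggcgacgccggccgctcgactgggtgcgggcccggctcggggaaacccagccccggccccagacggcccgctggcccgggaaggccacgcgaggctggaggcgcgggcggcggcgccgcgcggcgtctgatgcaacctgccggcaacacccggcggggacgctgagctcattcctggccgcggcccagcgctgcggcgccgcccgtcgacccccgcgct
The CEBPA and CEBPB windows each held a TATA box, starting at -30 and -29 from the RefSeq start, and the CEBPG window held none. TATAAA was found in 11.5% of the 35116 promoter windows of the same length. The CEBPB window also held TGACG at -57, found in 24.6% of all windows, and a CCAAT box at -245, found in 34.6%. GC boxes (GGGCGG on either strand, left in lower case) numbered 5 in the CEBPB window and 2 each in those of CEBPA and CEBPG, against 45.0% of windows with at least 1. None of the 3 windows held the glucocorticoid receptor core, found in 14.8% of windows, or the C/EBP core, found in 10.5%, and no matches overlapped. All 3 were rich in G and C, at 80.7% for CEBPA, 76.7% for CEBPB and 79.7% for CEBPG, against a median of 58.7% over all windows. The RefSeq start lay 30 bases from the start of the measured transcript for CEBPA, 96 for CEBPB and 199 from the nearer measured transcript for CEBPG. Binding was not measured in these files, and a match is only a run of letters.

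In the GENCODE release 29 annotation on GRCh38, CEBPA lay at chr19:33299934-33302564 on the minus strand, CEBPB at chr20:50190734-50192689 on the plus strand and CEBPD at chr8:47736909-47739086 on the minus strand, each as a single exon. CEBPG lay at chr19:33373330-33382686 on the plus strand with 2 exons, 70766 bases beyond CEBPA. The noncoding gene CEBPA-DT began 293 bases from the CEBPA gene on the opposite strand, and the antisense gene CEBPB-AS1 overlapped CEBPB without a row in the table. The use of strand in counting is not given in the sources used here, so reads of CEBPB and CEBPB-AS1 could not be told apart.

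Levels are given as CPM, the standard counts-per-million unit, after TMM scaling of library sizes. Library totals ran from 6708864 to 13748598 counts with dex and from 7813353 to 13619043 with EtOH, and no pair of libraries was identical. The glucocorticoid targets listed as a check, TSC22D3, FKBP5, PER1, DUSP1, KLF9, SGK1 and TFCP2L1, were higher with dex at every time point from 3 hours, 7 of 7 tested, and 6 of 7 at 1 hour. Of all genes, 0.639% were called higher at 1 hour. From 3 to 11 hours the shares were 8.42%, 12.4%, 14.7%, 10.8% and 5.80%. The 6 epithelial markers of A549 cells (KRT7, KRT8, KRT18, EPCAM, CDH1 and CLDN4) were all detected, with a summed level of 4572 to 12360 CPM with dex and 3889 to 6270 with EtOH. Leukocyte markers summed to at most 3.86 CPM in any library, with CD3E at 0, and endothelial markers to at most 1.06. Fibroblast markers summed to 7.84 to 24.8 CPM with dex and 14.7 to 21.8 with EtOH. Most of that sum was COL1A1 alone, with group means of 6.89 to 19.2 CPM, and 3 of the 5 fibroblast markers averaged under 1 CPM. The sum is thus not read as a sign of fibroblasts in the cultures. These are bulk libraries, so fewer cells of a type and less RNA per cell cannot be told apart.

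CEBPB and CEBPD rose with dex at all 6 time points, CEBPG fell at 5 hours, and CEBPA passed the test at no single time point. A call is an adjusted p of 0.1 or less over all genes tested (Benjamini-Hochberg) in the quasi-likelihood test of edgeR, comparing the dex pair of libraries with the EtOH pair. At 1 hour 2 of the 4 genes were called, both higher, where 1.06% of all genes were called, 0.639% higher and 0.417% lower. At 3 hours CEBPB and CEBPD were again the called pair, against 14.1% of all genes (8.42% higher and 5.65% lower). At 5 hours 3 of the 4 were called, 2 higher and 1 lower, against 25.0% of all genes (12.4% higher and 12.6% lower). At 7, 9 and 11 hours CEBPB and CEBPD alone were called, both higher, where 28.2%, 19.8% and 9.12% of all genes were called with 14.7%, 10.8% and 5.80% higher and 13.5%, 8.95% and 3.33% lower. The median log2 fold change of the 4 genes lay between 0.58 and 0.74 at the 6 time points, beside medians of all genes between -0.006 and 0.014.

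CEBPB encodes a factor that is made as long activating and short inhibitory proteins from the same RNA, which counts of transcripts do not separate. At 1 hour it stood at 82.8 and 76.8 CPM in the 2 dex libraries and at 35.8 and 38.6 in the 2 EtOH libraries. At 3 hours the values were 88.4 and 106 CPM with dex and 43.9 and 40.3 with EtOH, and at 5 hours they were 116 and 140 with dex and 38.6 and 38.4 with EtOH. The groups did not overlap at any time, and the lowest dex library of all, at 76.8, lay above the highest EtOH library, at 43.9. The share of all genes that separated in this way was not counted, so the separation is a description only. At 7 hours dex gave 102 and 96.4 CPM and EtOH 36.0 and 31.4. At 9 hours dex gave 87.7 and 101 CPM and EtOH 34.9 and 42.7, and at 11 hours dex gave 96.5 and 107 and EtOH 39.1 and 43.1. The dex libraries were thus highest at 5 hours and lowest at 1 hour, while the EtOH libraries kept to a narrow band.

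The CEBPB log2 fold change was 1.10 (SE 0.12) at 1 hour, a 2.14-fold difference, with adjusted p = 2.47e-05 by the Benjamini-Hochberg adjusted quasi-likelihood test of edgeR. It was 1.22 (SE 0.12) at 3 hours, 1.73 (SE 0.12) at 5 hours, 1.57 (SE 0.10) at 7 hours, 1.30 (SE 0.14) at 9 hours and 1.33 (SE 0.15) at 11 hours. The 5-hour difference was 3.32-fold, with adjusted p = 2.26e-16 in the same edgeR test, and the weakest of the 6 calls was that at 11 hours, with adjusted p = 9.29e-05. By log2 fold change CEBPB stood 141st from the top of 15337 genes at 1 hour and 418th at 11 hours. CEBPB kept its call and direction in every alternative run, 12 at each time point.

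CEBPD encodes a short-lived factor of the acute phase response that often rises with CEBPB. At 1 hour it stood at 13.3 and 12.3 CPM with dex and at 4.84 and 4.89 with EtOH. At 3 hours dex gave 14.6 and 19.1 CPM and EtOH 5.47 and 5.31, and at 5 hours dex gave 19.6 and 21.3 and EtOH 3.38 and 4.33. Here too the lowest dex library of all, at 12.3, lay above the highest EtOH library, at 6.0, again as a description only. At 7 hours dex gave 18.2 and 15.0 CPM and EtOH 4.62 and 5.59. At 9 hours dex gave 17.0 and 17.4 CPM and EtOH 2.85 and 5.90, and at 11 hours dex gave 22.6 and 15.2 and EtOH 4.79 and 6.0. The spread within a group was widest in the EtOH libraries at 9 hours and the dex libraries at 11 hours. CEBPD had 32 to 68 counts per EtOH library and 81 to 258 per dex library, far fewer than CEBPB with 310 to 1348.

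The CEBPD log2 fold change was 1.40 (SE 0.21) at 1 hour, 1.65 (SE 0.19) at 3 hours, 2.39 (SE 0.20) at 5 hours, 1.72 (SE 0.19) at 7 hours, 2.01 (SE 0.26) at 9 hours and 1.81 (SE 0.26) at 11 hours. The 5-hour difference was 5.24-fold, with adjusted p = 6.67e-13 by the Benjamini-Hochberg adjusted quasi-likelihood test of edgeR. The adjusted p in the same edgeR test was 0.000898 at 1 hour, the weakest of the 6. CEBPD stood 67th of 15337 genes by log2 fold change at 1 hour, ahead of CEBPB, and 122nd at 5 hours. It too kept its call and direction in all 12 alternatives at each time point, although its value at 9 hours ran from 1.56 to 2.60 over them.

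**Figure D1:**
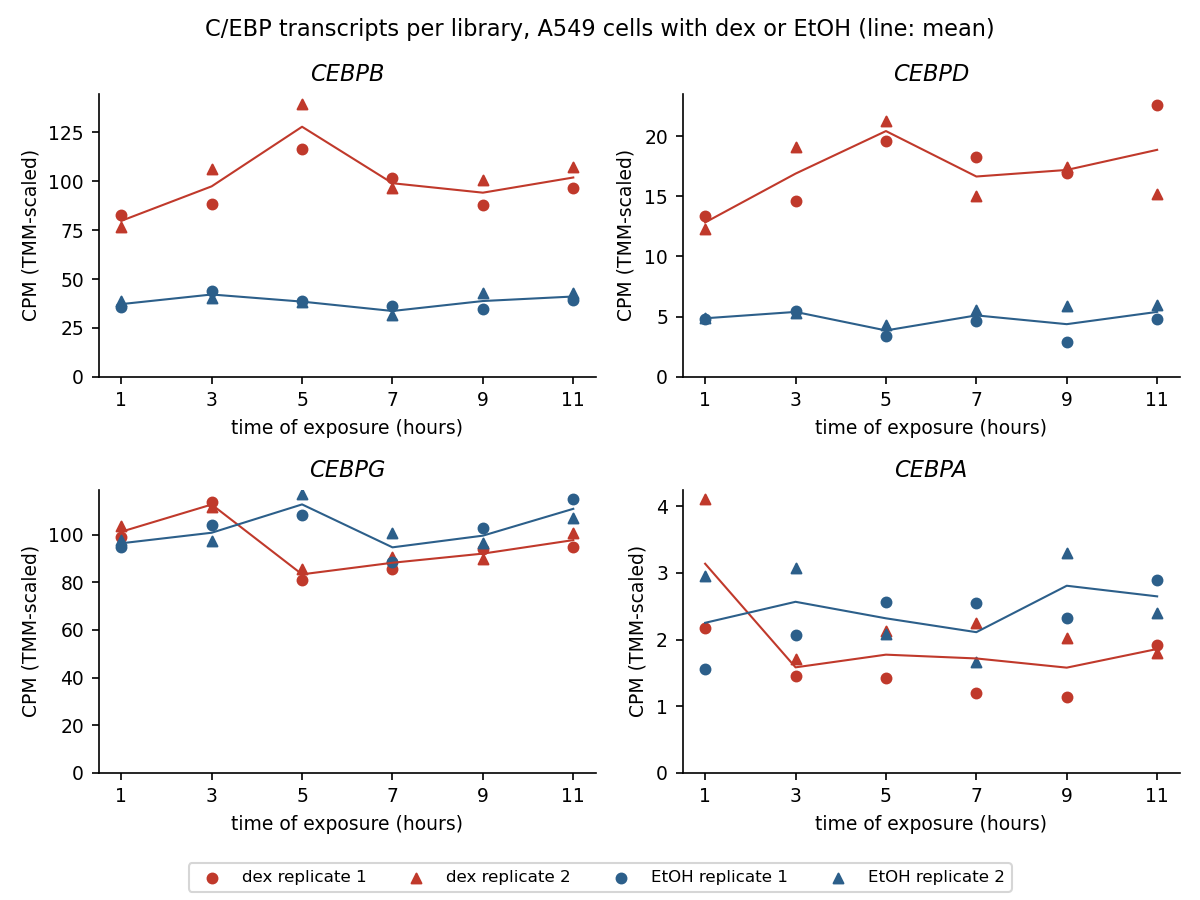
CPM after TMM scaling (vertical axis) against hours of exposure (horizontal axis) for the 4 C/EBP genes in all 24 libraries, with circles for replicate 1, triangles for replicate 2 and a line through the mean of each pair. For CEBPB and CEBPD every dex library sits above every EtOH library, for CEBPG the dex libraries sit below the EtOH libraries at 5 hours, and CEBPA is at or under 4.11 CPM throughout.

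CEBPG, the dimer partner, was called at 5 hours alone. It stood at 81.0 and 85.7 CPM in the dex libraries at 5 hours and at 108 and 117 in the EtOH libraries, a log2 fold change of -0.44 (SE 0.11) with adjusted p = 0.00169 by the Benjamini-Hochberg adjusted quasi-likelihood test of edgeR. At 1 hour dex gave 99.0 and 103 CPM and EtOH 94.9 and 97.7, and at 3 hours dex gave 114 and 112 and EtOH 104 and 97.4. The dex libraries were thus the higher pair at 1 and 3 hours, by log2 fold changes of 0.06 (SE 0.11) and 0.16 (SE 0.10) that did not pass the test. At 7 hours the groups overlapped, with 85.7 and 90.6 CPM with dex and 88.6 and 101 with EtOH. At 9 hours dex gave 94.1 and 89.9 and EtOH 103 and 96.3, and at 11 hours dex gave 94.8 and 101 and EtOH 115 and 107. From 7 to 11 hours the log2 fold changes of -0.10 (SE 0.09), -0.10 (SE 0.11) and -0.16 (SE 0.13) did not pass the test. The groups did not overlap at 5 of the 6 time points although 1 was called. Groups of 2 libraries can separate without any change, and the share of all genes that did so was not counted. Separation alone is thus not read as a change. The 2 CEBPG transcripts took close to equal counts, with 45.7% to 52.3% of the gene's counts in any library on ENST00000284000, and their counts were summed. How reads common to several transcripts were placed is not given in the sources used here, so it was read from pairs of transcripts of identical sequence. In 5 such pairs with at least 240 counts the first transcript held 45.7% to 52.7% of the counts, and the counts of a pair were equal in at most 2 of 24 libraries. The mean of the squared difference over the sum was 0.56 to 1.26, where placing each read once at random gives 1. A sum of both CEBPG transcripts therefore did not count reads of these libraries in duplicate, as far as those pairs show.

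CEBPA, the factor of late differentiation, was near the lower limit of detection. It had 8 to 27 counts per dex library and 17 to 41 per EtOH library. At 1 hour its values were 2.17 and 4.11 CPM with dex and 1.56 and 2.95 with EtOH, so the groups overlapped. At 3 hours they were 1.45 and 1.71 with dex and 2.07 and 3.07 with EtOH, and at 5 hours 1.42 and 2.13 with dex and 2.56 and 2.08 with EtOH. At 7 hours dex gave 1.19 and 2.24 CPM and EtOH 2.56 and 1.67. At 9 hours dex gave 1.14 and 2.02 and EtOH 2.32 and 3.30, and at 11 hours dex gave 1.92 and 1.80 and EtOH 2.90 and 2.40. The dex libraries lay below both EtOH libraries at 3, 9 and 11 hours and overlapped them at 1, 5 and 7 hours. As for CEBPG, separation of groups of 2 libraries is not read as a change. The log2 fold changes were 0.38 (SE 0.38) at 1 hour, then -0.71 (SE 0.36), -0.38 (SE 0.37), -0.35 (SE 0.40), -0.71 (SE 0.38) and -0.48 (SE 0.36) from 3 to 11 hours. None passed the test, which does not show that CEBPA did not change. The sign at 1 hour rested on dex replicate 2, without which the log2 fold change was -0.08, and the sign at 7 hours on dex replicate 1, without which it was 0.09. Without EtOH replicate 1 at 9 hours CEBPA was called lower, at -0.95.

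**Figure D2:**
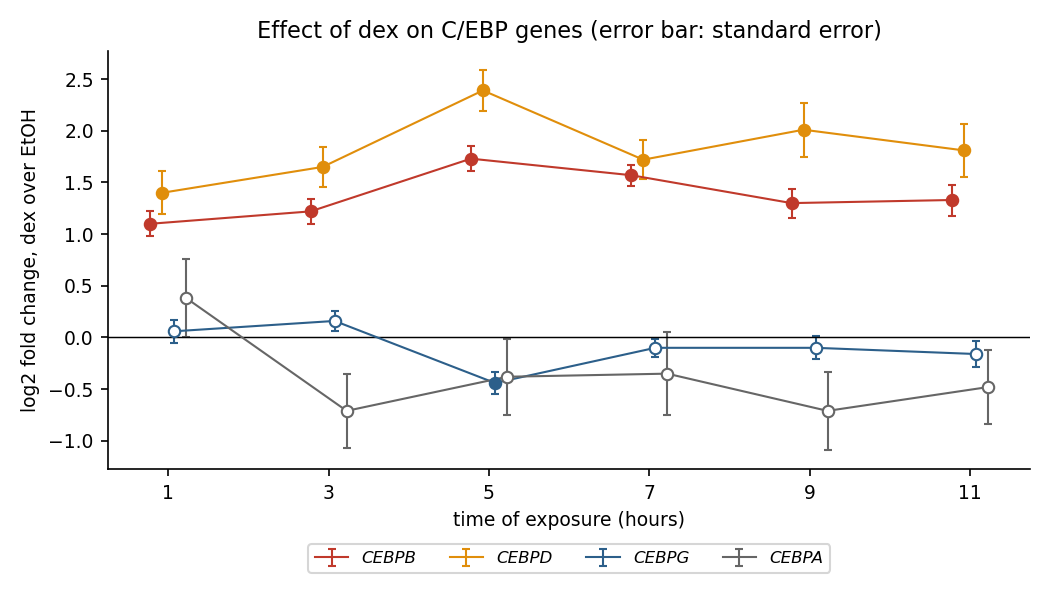
Log2 fold change of dex over EtOH (vertical axis) against hours of exposure (horizontal axis) for the 4 C/EBP genes, with bars of 1 standard error from edgeR and filled points where the gene was called. CEBPD and CEBPB run between 1.10 and 2.39 with filled points throughout, CEBPG has a single filled point at 5 hours, and CEBPA has only open points.

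Over all 24 libraries, the dex effect averaged over the 6 time points was 1.82 (SE 0.10) for CEBPD and 1.37 (SE 0.05) for CEBPB on the log2 scale, folds of 3.54 and 2.58, where 35.9% of all genes were called. The adjusted p values were 7.46e-15 and 2.81e-18 by the Benjamini-Hochberg adjusted quasi-likelihood test of edgeR. CEBPG averaged -0.10 (SE 0.04) and CEBPA -0.38 (SE 0.16), with adjusted p = 0.0459 and 0.0814 in the same edgeR fit, so that all 4 genes were called on average, 2 higher and 2 lower (16.9% and 18.9% of all genes). The CEBPA call rested on single libraries: it was lost without any of 11 of the 24, namely dex replicate 1 at 1, 3, 5, 7 or 9 hours, EtOH replicate 2 at 1, 3 or 9 hours, or EtOH replicate 1 at 5, 7 or 11 hours, with log2 values from -0.47 to -0.28 over all 24, and with DESeq2, adjusted p = 0.158. The CEBPG call was lost without dex replicate 1 at 5 hours, at -0.09, without EtOH replicate 2 at 7 hours, at -0.08, or without EtOH replicate 1 at 11 hours, at -0.09, and with no filter on low counts.

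Whether the dex effect itself changed with time was tested across the 6 time points, where 15.4% of all genes were called. The CEBPG effect differed between time points, with adjusted p = 0.0293, and so did the CEBPB effect, with adjusted p = 0.0935, both by the Benjamini-Hochberg adjusted quasi-likelihood test of edgeR. CEBPD and CEBPA did not pass, with adjusted p = 0.347 and 0.592 in the same edgeR test, which does not show that their effects were constant. The CEBPB call was lost without any of 15 of the 24 libraries, namely both dex libraries at 1 and 7 hours, dex replicate 1 at 3 or 9 hours, dex replicate 2 at 5 hours, both EtOH libraries at 1, 3 and 5 hours, and EtOH replicate 2 at 7 or 11 hours, with adjusted p from 0.0422 to 0.276 over all 24 in edgeR. The CEBPG call was lost without dex replicate 1 or EtOH replicate 2 at 5 hours, with adjusted p = 0.115 in edgeR for each. CEBPD was called without EtOH replicate 2 at 9 hours, with adjusted p = 0.0938 in edgeR.

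The effect at 11 hours against that at 5 hours, where 2.91% of all genes were called, was not called for any of the 4. The difference in log2 fold change was -0.42 (SE 0.18) for CEBPB and -0.59 (SE 0.35) for CEBPD, with adjusted p = 0.305 and 0.544 by the Benjamini-Hochberg adjusted quasi-likelihood test of edgeR. It was 0.25 (SE 0.13) for CEBPG and -0.12 (SE 0.57) for CEBPA. The CEBPA value turned to 0.19 without dex replicate 2 at 5 hours, to 0.03 without EtOH replicate 2 at 5 hours and to 0.01 without EtOH replicate 1 at 11 hours.

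Change over time was also tested within each treatment. Within the 12 EtOH libraries none of the 4 was called for a change over time, where 3.30% of all genes were, with adjusted p between 0.344 and 0.939 by the Benjamini-Hochberg adjusted quasi-likelihood test of edgeR, which does not show that their levels were constant. Within the 12 dex libraries CEBPB and CEBPG were called, with adjusted p = 0.0159 and 0.0411 in edgeR, where 23.3% of all genes were. CEBPD and CEBPA did not pass there, with adjusted p = 0.203 and 0.444 in edgeR. The CEBPB call was lost without dex replicate 2 at 5 hours, with adjusted p = 0.155 in edgeR. The CEBPG call was lost without either dex library at 3 hours, or dex replicate 1 at 5 or 7 hours, with adjusted p between 0.00806 and 0.168 over the 12 libraries left out in edgeR. CEBPD was called without dex replicate 1 or 2 at 11 hours, with adjusted p = 0.0616 and 0.0201 in edgeR.

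Levels were compared between the 4 genes only per length, as CPM per kilobase of transcript. In EtOH the order was CEBPG with a median of 25.6 over 12 libraries (22.3 to 29.6), CEBPB with 19.7 (16.0 to 22.4), CEBPD with 2.23 (1.31 to 2.76) and CEBPA with 0.942 (0.591 to 1.25), and the ranges of neighbours in this order overlapped only narrowly for CEBPG and CEBPB. With dex the order was CEBPB with 50.4 (39.3 to 71.3), CEBPG with 23.7 (20.4 to 28.6), CEBPD with 7.89 (5.66 to 10.4) and CEBPA with 0.707 (0.434 to 1.56), and no neighbours overlapped. The CEBPG level sums its 2 transcripts, so the order of CEBPG and CEBPB in EtOH holds for reads placed once, as in the pairs of identical transcripts. The per-length level of the 4 together was 43.8 to 52.6 in the EtOH libraries and 72.5 to 104 in the dex libraries.

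The makeup of the 4 changed with it. CEBPG supplied a median of 52.3% of the summed per-length level in EtOH and 28.7% with dex, and CEBPB 41.0% in EtOH and 60.5% with dex. CEBPD supplied 4.84% in EtOH and 9.50% with dex, while CEBPA supplied 1.94% and 0.779%. These are shares of RNA, not of protein or of dimers. The CEBPG level depends on the length taken for its 2 transcripts, and with the length of ENST00000585933 for both, no share moved by more than the spread between libraries. Like the order in EtOH, the shares hold for reads placed once, as in the pairs of identical transcripts.

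**Figure D3:**
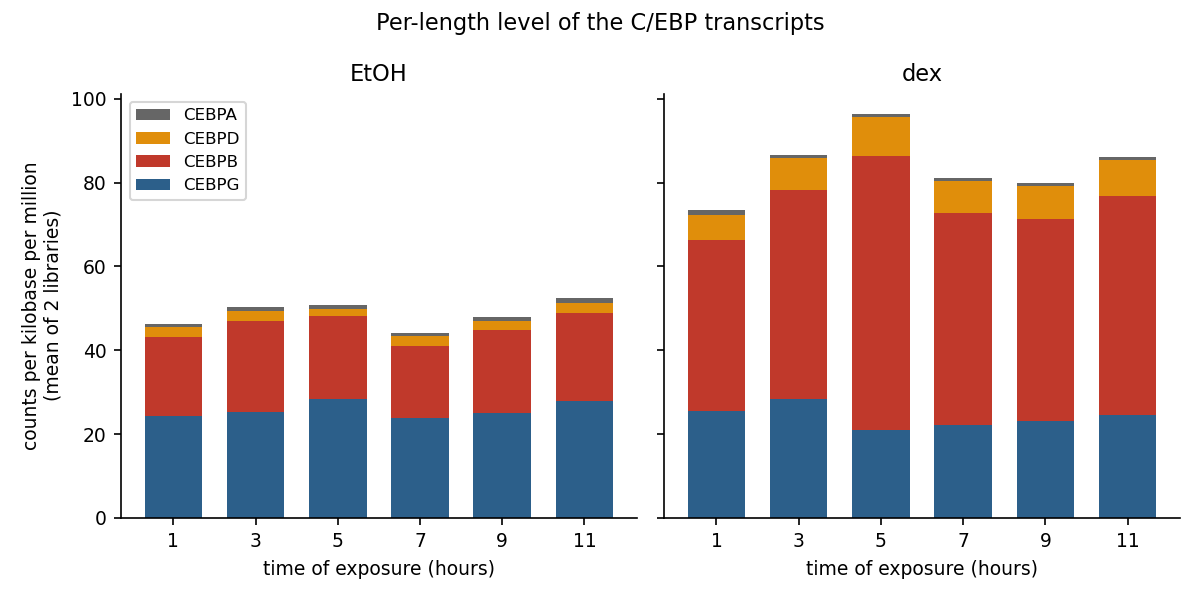
CPM per kilobase of transcript (vertical axis, mean of 2 libraries, stacked by gene) against hours of exposure (horizontal axis), with EtOH on the left, dex on the right and CEBPG as the sum of its 2 transcripts. CEBPG is the largest segment in every EtOH bar and CEBPB in every dex bar, and CEBPA is a thin cap throughout.

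The balance between pairs of the genes was compared through log2 ratios of their CPM in the same library, with an exact permutation test that exchanged treatments within each time point. The CEBPB to CEBPG ratio was 1.46 higher with dex on the log2 scale and the CEBPD to CEBPG ratio 1.93 higher, both in 6 of 6 time points, with p = 4.29e-05 two-sided in the exact permutation test, the smallest it can give, and 0.000129 after adjustment over the 6 ratios. The CEBPB to CEBPD ratio was lower with dex, by -0.47, in 6 of 6 time points (exact permutation p = 0.000129, adjusted 0.000155), so that CEBPD rose by more than CEBPB. The ratios of CEBPA to CEBPB and to CEBPD were lower by -1.75 and -2.22 in 6 of 6 time points (exact permutation p = 8.57e-05 for each, adjusted 0.000129). The CEBPA to CEBPG ratio differed by -0.29, in 4 of 6 time points, and did not pass (exact permutation p = 0.147). These ratios were chosen after the values of the genes were known.

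Across libraries, log2 CPM of CEBPB and CEBPD correlated with Pearson r = 0.97 over 24 libraries that fall into the 2 treatments. Within treatments r was 0.73 over the 12 dex libraries and 0.38 over the 12 EtOH libraries. CEBPG and CEBPB had r = -0.51 with dex and 0.21 with EtOH, and CEBPG and CEBPD had r = -0.47 and -0.21. CEBPA and CEBPB had r = -0.29 with dex and 0.53 with EtOH. Points of a correlation share library, depth and scaling, and the values are descriptions only.

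The genes most like each C/EBP gene were taken as the 5 with the highest Pearson r of log2 CPM over the 24 libraries among 14022 genes. For CEBPB these were TSC22D3 (r = 0.974), a glucocorticoid-induced leucine zipper protein, SYBU (0.973), STBD1 (0.967), PDK4 (0.963), a kinase that restrains pyruvate dehydrogenase, and ITPKC (0.962). For CEBPD they were PDK4 (0.974), CAVIN2 (0.971), SYBU (0.969), STBD1 (0.961) and RHOB (0.959), a small GTPase. PDK4, SYBU and STBD1 stood in both lists. At 1 hour PDK4 had a log2 fold change of 1.57 (SE 0.13) and at 5 hours 1.99 (SE 0.13). RHOB had 0.91 (SE 0.11) and 1.06 (SE 0.11) at the same times. All were called, where 1.06% of all genes were at 1 hour and 25.0% at 5 hours. These genes were chosen for following CEBPB or CEBPD in these same libraries of both treatments, so their calls are a description.

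For CEBPG the most alike were RDH10 (0.890), a retinol dehydrogenase, GINS1 (0.866), a part of the replication helicase, TRIM37 (0.863), SLBP (0.861), the histone RNA binding protein, and E2F1 (0.832), a factor of entry into S phase. All 5 were called lower at 5 hours, as CEBPG was, with log2 fold changes from -1.56 (SE 0.13) for E2F1 to -0.31 (SE 0.10) for TRIM37, where 12.6% of all genes were called lower. The 5 were chosen for following CEBPG in these same libraries, so this is a description. The TRIM37 call was lost without dex replicate 2 or EtOH replicate 2 at 5 hours, with values between -0.36 and -0.26. For CEBPA they were NPBWR1 (0.773), TINAGL1 (0.768), TMEM44 (0.765), MARCKSL1 (0.756) and PRKCQ (0.749), less alike than those of the other 3 genes.

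Of the relatives, CEBPE, the granulocyte member of the family, was at 0 counts in all 24 libraries. DDIT3, the stress-induced member that pairs with other C/EBP proteins, was called at no time point, with log2 fold changes from -0.63 (SE 0.28) at 1 hour to 0.39 (SE 0.24) at 7 hours. CEBPZ, which shares the name but is not a leucine zipper factor, was called at no single time point and averaged -0.09 (SE 0.04), with adjusted p = 0.0744 by the Benjamini-Hochberg adjusted quasi-likelihood test of edgeR, a call lost without any of 14 of the 24 libraries. CEBPA-DT was called at no time point, with 4 to 26 counts per library. Among the nearest protein-coding neighbours, PTPN1, 317632 bases beyond CEBPB, was called higher from 5 to 11 hours, by 0.34 (SE 0.11) to 0.54 (SE 0.14). At 9 hours the PTPN1 call was lost without dex replicate 1, at 0.59, or dex replicate 2, at 0.49. SLC7A10, beyond CEBPA, had 0 to 6 counts per library and was below the filter. TMEM189, 37000 bases from CEBPB on the other side, and SPIDR and PRKDC beside CEBPD were called at no time point, although SPIDR ends 603 bases from CEBPD. PEPD, 4264 bases beyond CEBPG, was called at 7 hours alone, at 0.32 (SE 0.10), a call lost without either dex library or EtOH replicate 1 at that time, with values between 0.16 and 0.50.

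The IL-6 type cytokines, their receptors and kinases are known inputs to CEBPB and CEBPD. The list counted here also held STAT3, SOCS3, CREB1 and NR3C1. Of 12 genes of this list that were tested, 8 were called higher and 2 lower at 7 hours, where 14.7% and 13.5% of all genes were. Their median log2 fold change at 7 hours was 0.69 beside -0.001 for all genes. At 1 hour 1 was higher and 1 lower, where 0.639% and 0.417% of all genes were. The counts were 5 and 4 at 3 hours (8.42% and 5.65% of all genes) and 7 and 2 at 5 hours (12.4% and 12.6%). They were 8 and 3 at 9 hours (10.8% and 8.95%) and 7 and 3 at 11 hours (5.80% and 3.33%). The receptor genes that rose included IL6R, the IL-6 receptor, by 2.38 (SE 0.17) at 5 hours, LIFR, the receptor of LIF, by 1.21 (SE 0.12), and IL6ST, their common signal chain, by 1.05 (SE 0.10). Among the ligands, IL11 had -3.53 (SE 0.22) at 5 hours and LIF -0.78 (SE 0.14), both called lower, and IL6 was below the filter. IL6ST and IL11 were called at 1 hour already, and a link of these genes to the rise of CEBPB and CEBPD was not tested. NR3C1, the glucocorticoid receptor, was called lower at 3 hours, at -0.61 (SE 0.09), 9 hours, at -0.44 (SE 0.13), and 11 hours, at -0.50 (SE 0.15), and was not called at 5 and 7 hours, at -0.13 (SE 0.10) and -0.15 (SE 0.07).

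Acute phase genes are textbook outputs of CEBPB and CEBPD in liver, and the list counted here also held defence genes such as CXCL8, CCL2 and PTGS2. Of 26 on the list 11 were tested, and 6 were called higher and 3 lower at 5 hours, where 12.4% and 12.6% of all genes were. Their median log2 fold change at 5 hours was 0.58 beside 0.01 for all genes. The counts were 0 higher and 3 lower at 1 hour, where 0.639% and 0.417% of all genes were called. They were 3 and 3 at 3 hours (8.42% and 5.65% of all genes) and 5 and 3 at 7 hours (14.7% and 13.5%). Later they were 4 and 2 at 9 hours (10.8% and 8.95%) and 4 and 3 at 11 hours (5.80% and 3.33%). SERPINA3, a serum protease inhibitor, rose by 3.61 (SE 0.22) at 5 hours, from a mean of 2.13 to 26.3 CPM, complement C3 by 2.27 (SE 0.11) and fibrinogen FGA by 2.14 (SE 0.14). None of these 3 was called at 1 hour, where 1.06% of all genes were, and SERPINA3 then had 0.75 (SE 0.41). All 3 were called from 3 hours on, and 14.1% of all genes were called at 3 hours. A part of CEBPB or CEBPD in these changes was not tested. The chemokines CXCL8 and CCL2 and the prostaglandin synthase PTGS2 fell, with -1.80 (SE 0.39), -0.86 (SE 0.18) and -0.77 (SE 0.15) at 1 hour and -1.65 (SE 0.40), -1.54 (SE 0.20) and -2.12 (SE 0.14) at 5 hours. CXCL8 was not called at 9 hours, at -0.38 (SE 0.34). The liver genes SAA1, CRP, HP and ORM1 were among the 15 below the filter.

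CEBPG pairs with ATF4 in the amino acid response. Of 16 tested genes among leucine zipper partners and that response, 0 were called at 1 hour, where 1.06% of all genes were. With so low a share, 0 calls in a short list are not read as a lack of response. At 5 hours 1 was higher and 6 were lower, where 12.4% and 12.6% of all genes were, with a median of -0.23 beside 0.01. The counts were 2 and 1 at 3 hours (8.42% and 5.65% of all genes) and 2 and 5 at 7 hours (14.7% and 13.5%). They were 0 and 4 at 9 hours (10.8% and 8.95%) and 0 and 1 at 11 hours (5.80% and 3.33%). The cystine transporter SLC7A11 fell by 2.05 (SE 0.12) on the log2 scale at 5 hours, from a mean of 540 to 130 CPM, and was called from 3 to 11 hours. PHGDH and PSAT1, the enzymes of serine synthesis, had -0.73 (SE 0.17) and -0.46 (SE 0.10) at 5 hours, whereas TRIB3, an inhibitor of ATF4, rose by 0.77 (SE 0.13) and was called at 3 and 7 hours too. The other higher calls were BATF3 at 3 hours, at 1.19 (SE 0.35), and NFIL3 at 7 hours, at 0.44 (SE 0.11), both leucine zipper factors and named after their values were seen.

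The adipogenic inputs and lipid outputs are the programme in which CEBPB and CEBPD precede CEBPA and PPARG. Of 7 inputs tested, 3 were called higher at 1 hour and 0 lower, where 0.639% and 0.417% of all genes were. The counts were 2 and 0 at 3 hours (8.42% and 5.65% of all genes) and 4 and 1 at 5 hours (12.4% and 12.6%). They were 5 and 1 at 7 hours (14.7% and 13.5%) and 3 and 2 at 9 hours (10.8% and 8.95%). The 11-hour counts were 2 and 0 (5.80% and 3.33%). The median log2 fold change of the inputs was 0.51 at 1 hour and 0.44 at 5 hours, beside -0.003 and 0.01 for all genes. KLF9, also listed above as a glucocorticoid target, had a log2 fold change of 1.83 (SE 0.22) at 1 hour and 3.73 (SE 0.17) at 9 hours. KLF4 had 1.69 (SE 0.19) at 1 hour and 1.15 (SE 0.19) at 9 hours. KLF15, named after its values were seen, was called higher at 1, 5 and 7 hours and lower at 9 hours, at -1.68 (SE 0.21). Its EtOH mean ran from 12.5 CPM at 7 hours to 63.1 CPM at 9 hours. KLF5 was called higher at 5, 7 and 9 hours, with 0.44 (SE 0.11) at 5 hours, and EBF1 was called lower at the same times, with -2.00 (SE 0.45) at 5 hours. PPARG was called at no time point, with log2 fold changes between -0.22 and 0.13, and is named after its values were seen. Of 8 outputs tested, 3 were higher and 1 was lower at 5 hours, where 12.4% and 12.6% of all genes were. Their median at 5 hours was 0.08 beside 0.01. The counts were 1 and 0 at 1 hour (0.639% and 0.417% of all genes) and 2 and 0 at 3 hours (8.42% and 5.65%). They were 3 and 1 at 7 hours (14.7% and 13.5%) and 3 and 2 at 9 hours (10.8% and 8.95%). The 11-hour counts were 3 and 1 (5.80% and 3.33%). ANGPTL4, an inhibitor of lipoprotein lipase, rose by 4.93 (SE 0.16) at 5 hours, ACSL1, an acyl-CoA synthetase, by 3.18 (SE 0.12) and PLIN2, a coat protein of lipid droplets, by 0.97 (SE 0.19), while the desaturase SCD fell by 0.57 (SE 0.10). FABP4, LPL, PLIN1, CD36, ADIPOQ and GPD1 were below the filter.

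Alveolar and airway genes, some of them targets of CEBPA and CEBPD in lung, were mostly out of reach. The list also held the transcription factors NKX2-1, FOXA1 and FOXA2, which are not counted here as such targets. Of 15 on the list 5 were tested, and the surfactant genes SFTPA1, SFTPA2, SFTPB, SFTPC and SFTPD, the secretoglobins and NKX2-1 were below the filter. At 5 hours 1 was called higher and 2 lower, where 25.0% of all genes were called, with a median log2 fold change of 0.26 beside 0.01. At 1 hour 0 were called, where 1.06% of all genes were, and at 7 hours 2 and 2, where 28.2% of all genes were. The counts at 3, 9 and 11 hours were 1 and 2, where 14.1%, 19.8% and 9.12% of all genes were called. The lower calls from 3 to 11 hours were those of FOXA1 and FOXA2 alone. LPCAT1, which makes surfactant lipid, rose by 0.67 (SE 0.10) at 5 hours, while FOXA1 and FOXA2, the forkhead factors of lung and gut epithelium, had -0.91 (SE 0.20) and -0.87 (SE 0.13). The epithelial markers moved as well, with 4 of 6 called higher and 1 lower at 5 hours, where 12.4% and 12.6% of all genes were. Their part in these results was not tested.

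**Figure D4:**
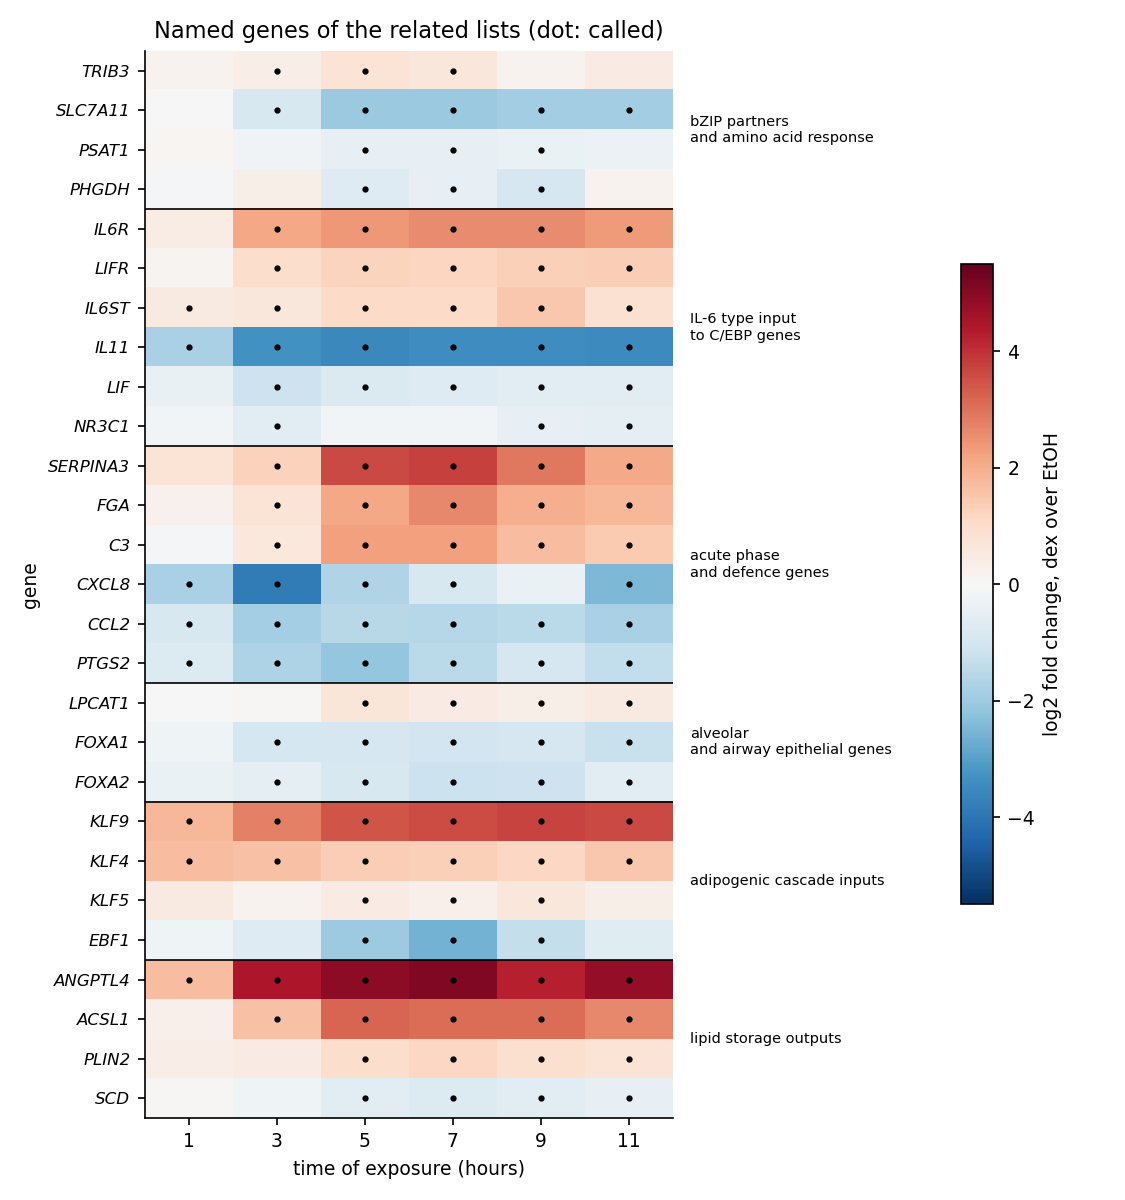
Log2 fold change of dex over EtOH (colour scale, red higher and blue lower with dex) for the named genes of the 6 related lists (rows) at the 6 times of exposure in hours (columns), with a dot where the gene was called in edgeR. ANGPTL4, KLF9, KLF4, IL6ST, IL11, CXCL8, CCL2 and PTGS2 carry a dot at 1 hour, and SERPINA3, FGA and C3 carry dots from 3 hours on.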

How the data were processed

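The deposited values are counts of reads per transcript. The authors aligned single-end reads from stranded poly-A libraries with Bowtie to the transcripts of GENCODE and tallied them with SAMtools, and the submitters' processing notes give hg19 as the build. The placing of reads common to several transcripts is not given in the sources used here, and counts of transcripts of identical sequence were compared to learn it. Of 119207 transcripts, 110262, holding 94.1% of the counts, were joined to genes by identifier without version through GENCODE release 29, and their counts were summed per gene. The row of unplaced reads held 0 counts.

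Groups, times and replicates were taken from the labels. Their treatment text gives 1 hour for every library, whereas the duration runs from 1 to 11 hours and was used. Genes were filtered with filterByExpr over the 12 groups, scaled by TMM and tested in edgeR 4.0.16 (R 4.3.3) with the robust quasi-likelihood F-test, 2 dex against 2 EtOH libraries at each time point, adjusted by Benjamini-Hochberg and called at 0.1 or less. The average effect, its change between time points and the change over time within each treatment came from fits over 24 or 12 libraries. Each SE was obtained as the size of the log2 fold change over the root of its F value. The biological coefficient of variation ran from 6.49% at 7 hours to 12.7% at 11 hours, and with 2 libraries a group the tests lean on a spread shared between genes. The script was tested on simulated data. Alternatives were DESeq2 1.42.0, its size factors in edgeR, a threshold of 0.05, no filter, a minimum of 10 counts in every library, the transcript with most counts for each gene, a replicate block, a single fit over 24 libraries and each library left out. The ratio test, the comparison of identical transcripts and a second length for CEBPG were added after the data were seen.

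The genes and lists were chosen with earlier results of these data known. Of each related list, the text names up to 3 genes in each direction with the largest mean log2 fold change among those called at consecutive time points with all calls and replicate pairs of the same sign, and names in full the relatives, the C/EBP-linked noncoding genes and the nearest neighbours. Likeness used genes with a mean of at least 1 CPM and 0.5 CPM added before the log. Promoter sequences were taken from RefSeq on GRCh38.p14.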

Additional observations from a re-analysis of the deposited data

Results flagged for a closer look

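The dex effect on CEBPG differed between time points, with adjusted p = 0.0293 by the Benjamini-Hochberg adjusted quasi-likelihood test of edgeR, the log2 fold change being -0.44 at 5 hours and 0.16 at 3 hours. The dex effect on CEBPB differed between time points as well, with adjusted p = 0.0935 in the same edgeR test, from 1.10 at 1 hour to 1.73 at 5 hours. Both calls rested on single libraries. That of CEBPB was lost without any of 15 of the 24, and that of CEBPG without either of 2.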

How the results depend on the processing

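CEBPB and CEBPD at all 6 time points and CEBPG at 5 hours kept their call and direction in each of 12 alternatives. DESeq2 called fewer genes, 1208 at 3 hours, 2348 at 5 hours, 2464 at 7 hours and 1831 at 9 hours, and lost the average effect of CEBPA, at -0.38. Without a filter 262 genes were called at 1 hour and 1831 for a change over time within EtOH, the average effect of CEBPG, at -0.11, was lost (adjusted p = 0.149 in edgeR) and CEBPD was called for a change over time with dex (adjusted p = 0.0858 in edgeR). With the transcript with most counts, 295 genes were called within EtOH and CEBPG was lost within dex (adjusted p = 0.111 in edgeR). A single fit over 24 libraries called 2478 genes at 11 hours. The cause of these changes was not tested.

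With the replicate number as a block, 583 genes were called at 1 hour, against 162 without it. Deviations of same-numbered libraries correlated by -0.0935 to 0.193 over the 6 time points. The values were 0.193 at 1 hour and 0.127 at 9 hours and lay below 0.1 at the other times. The study's methods mention a paired EtOH control but do not say which libraries form a pair. Libraries of the same number were therefore not paired in the main tests, and whether they are pairs remains unknown. The block changed no call of CEBPA, CEBPB, CEBPD or CEBPG at a single time point.

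Leaving out 1 library gave 88 to 691 called genes at 1 hour, 1290 to 2598 at 3 hours, 2006 to 4821 at 7 hours, 1056 to 5297 at 9 hours and 720 to 4978 at 11 hours, 1654 to 3968 for a change of the dex effect with time, 2636 to 6461 for a change over time with dex and 12 to 2036 within EtOH. The average effect ran from -0.47 to -0.28 for CEBPA and from -0.12 to -0.08 for CEBPG. The adjusted p in edgeR for a change of the dex effect with time ran from 0.0422 to 0.276 for CEBPB, 0.0938 to 0.604 for CEBPD and 0.0158 to 0.115 for CEBPG, and for a change over time with dex from 0.00163 to 0.155 for CEBPB, 0.0201 to 0.434 for CEBPD and 0.00806 to 0.168 for CEBPG. CEBPA ran from -0.08 to 0.94 at 1 hour, from -0.95 to -0.37 at 3 hours, from -0.69 to -0.12 at 5 hours, from -0.81 to 0.09 at 7 hours, from -1.27 to -0.44 at 9 hours and from -0.39 to 0.19 for 11 against 5 hours, where CEBPD ran from -0.91 to -0.34. The average effects of TMEM189 and CEBPA-DT, -0.03 and -0.06, ran from -0.09 to 0.03 and from -0.16 to 0.07, with a sign above 0 without any of 3 libraries each (0.02, 0.03 and 0.02 for TMEM189 and 0.01, 0.07 and 0.00 for CEBPA-DT). The minimum of 10 counts left no value for CEBPA at 9 hours, where a library has 8. CEBPA had 8 to 41 counts per library.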
